A study of Mus musculus with 4 samples.

Results

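The 10 genes described here encode nuclear receptors that sense or carry out lipid and xenobiotic signals in the liver, namely Nr1h2, Nr1h3, Nr1i2, Nr1i3, Hnf4a, Rxra, Nr5a2, Esrra, Thrb and Pparg. They were taken by name from the 25655 genes of the deposited table, and 10 of 10 were found. Liver RNA was sequenced from 2 HFD-WT and 2 HFD-KO libraries. HFD-WT mice were ADAR2+/+/GluR-B R/R and HFD-KO mice were ADAR2-/-/GluR-B R/R, so both groups carried the GluR-B R/R allele, which fixes the edited form of a glutamate receptor subunit. The mice were offspring of heterozygous intercrosses on a B6129S background, and both groups received the high-fat diet (HFD) for 12 weeks, starting at 5 weeks of age. The labels do not give the sex of these mice, and the study turned to males for this stage. ADAR2 was absent from the whole body and not from hepatocytes alone, and no chow-fed library was analysed here. A legend of the study gives more mice per group than there are libraries here, but how the mice relate to the libraries is not given in the sources used here, so the spread between replicates may be partly technical. The comparison asked how the loss of ADAR2 changed liver gene expression under the HFD.

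Nuclear receptors are transcription factors that bind DNA as single proteins, as homodimers or as heterodimers with a retinoid X receptor, and that change the transcription of nearby genes when a small lipophilic ligand enters their ligand-binding pocket. In liver, LXR alpha (Nr1h3) and LXR beta (Nr1h2) respond to oxysterols, PXR (Nr1i2) and CAR (Nr1i3) respond to drugs, bile acids and other foreign or toxic compounds, and RXR alpha (Rxra) is the partner of all of these. HNF4 alpha (Hnf4a) maintains hepatocyte identity, LRH-1 (Nr5a2) drives bile acid and methyl group metabolism, ERR alpha (Esrra) drives mitochondrial genes, the thyroid hormone receptor beta (Thrb) is the main hepatic receptor for thyroid hormone, and PPAR gamma (Pparg) drives lipid storage.

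PXR (Nr1i2) was the only 1 of the 10 receptors whose 95% confidence interval lay away from 0. Its expression was lower in both HFD-KO livers, with a log2 fold change of -0.38, which did not pass the adjustment over all genes. The other 9 receptors had log2 fold changes from -0.08 to 0.22, and the 95% confidence interval of each held 0. Among the genes these receptors are known to drive, those of PXR and CAR differed most often between the genotypes by count, with 3 of 39 past the adjusted threshold (0.0771% of all genes tested) and, at an unadjusted p below 0.05, 16 lower and 6 higher (8.98% of all genes in either direction).

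The total count per library was between 24480798 and 28691330, and each receptor had between 424 and 19181 reads in a library. Expression is given as CPM, read counts scaled to a common library size with TMM factors, where a gene is compared between libraries, and as the authors' RPKM, which also divides by gene length, where levels of different genes are compared. Adarb1, the targeted gene, had 15.7 and 19.8 CPM in HFD-WT and 6.23 and 9.55 CPM in HFD-KO livers. Its values did not overlap between the groups (log2 fold change -1.17, standard error (SE) 0.20, edgeR adjusted p = 0.159), and counts per gene do not show which exons the remaining reads came from. The hepatocyte marker list was high in each library, with a summed expression from 92210 to 109800 CPM. In bulk liver, fewer cells of a type and less RNA per cell cannot be told apart.

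For the 4 receptors whose HFD-KO values did not overlap with the HFD-WT values, the 250 bases before an annotated transcription start are shown, from the RefSeq promoter table on GRCm38.p6, written 5′ to 3′ along the gene. This choice rests on the order of the CPM values alone and does not mark a genotype effect. Such separation was common. Both HFD-KO libraries lay below both HFD-WT libraries for 20.3% of all genes tested, as for Nr1i2. They lay above them for 20.5%, as for Nr1i3, Nr1h2 and Nr5a2, whose confidence intervals held 0. Capitals mark the half-site AGGTCA, or its reverse complement TGACCT, a core sequence bound by many receptors of this family.
Nr1i2, chr16:38294825-38295074, minus strand: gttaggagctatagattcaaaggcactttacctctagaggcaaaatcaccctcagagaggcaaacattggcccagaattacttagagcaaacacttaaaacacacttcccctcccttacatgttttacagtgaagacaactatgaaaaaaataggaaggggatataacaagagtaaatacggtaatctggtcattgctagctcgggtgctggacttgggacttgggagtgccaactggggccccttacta
Nr1i3, chr1:171213720-171213969, plus strand: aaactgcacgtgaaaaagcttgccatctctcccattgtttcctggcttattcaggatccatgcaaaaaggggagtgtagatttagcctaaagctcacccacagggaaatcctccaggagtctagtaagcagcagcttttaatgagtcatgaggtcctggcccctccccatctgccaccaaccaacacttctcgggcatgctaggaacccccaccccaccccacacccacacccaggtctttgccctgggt
Nr1h2, chr7:44553966-44554215, minus strand: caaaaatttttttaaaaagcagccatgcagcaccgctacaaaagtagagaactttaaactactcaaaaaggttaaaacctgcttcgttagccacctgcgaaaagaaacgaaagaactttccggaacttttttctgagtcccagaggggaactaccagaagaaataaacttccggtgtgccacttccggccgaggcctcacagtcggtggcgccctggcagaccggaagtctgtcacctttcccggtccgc
Nr5a2, upstream start, chr1:136960449-136960698, minus strand: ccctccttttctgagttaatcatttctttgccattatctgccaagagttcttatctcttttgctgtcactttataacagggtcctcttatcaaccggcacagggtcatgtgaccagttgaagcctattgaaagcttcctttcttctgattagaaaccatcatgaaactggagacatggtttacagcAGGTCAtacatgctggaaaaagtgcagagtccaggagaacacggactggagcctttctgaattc
A promoter was present in that table for 10 of 10 receptors, with 17 starts in all and windows of 300 bases. The half-site was found on either strand in 5 of these 17 windows, which belonged to Nr5a2, Pparg, Rxra and Thrb, and in 16.3% of all 32851 promoter windows. The Nr1i2, Nr1i3 and Nr1h2 windows did not hold these letters. In the Nr5a2 window shown it lay from -64 to -59 relative to the start. The HNF4 alpha core AAAGTCCA was found in 0 of 17 windows and in 1.25% of all windows, and a direct repeat of the half-site with 1 base between the copies, AGGTCANAGGTCA, which contains the half-site, was found in 0 of 17 and in 0.0396% of all. These matches describe letters in a short window and not binding.

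The order of the receptors by level was the same at most places in each library. Hnf4a had the highest level, with 131 and 132 RPKM in HFD-WT and 114 and 131 RPKM in HFD-KO livers. It was followed by Nr1i3, with 107 and 99.9 RPKM in HFD-WT and 128 and 105 RPKM in HFD-KO livers, and these neighbours overlapped, since Nr1i3 exceeded Hnf4a in replicate 1 of HFD-KO. Rxra came next, with 75.9 to 85.2 RPKM over the 4 libraries. Nr1h3 (40.5 to 43.8 RPKM) and Nr1i2 (29.03 to 42.4 RPKM) overlapped in range, although Nr1h3 was the higher in 4 of 4 libraries. Esrra (19.7 to 21.9 RPKM), Nr1h2 (12.6 to 15.1 RPKM), Nr5a2 (8.13 to 9.72 RPKM), Pparg (6.25 to 7.93 RPKM) and Thrb (3.48 to 3.53 RPKM in HFD-WT livers) followed without overlap between neighbours. Among all 49 genes of the nuclear receptor superfamily, the 3 highest levels were those of Hnf4a, Nr1i3 and Rxra, and the 10 receptors together held between 60.9% and 63.5% of the summed RPKM of the family in a library.

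**Figure D1:**
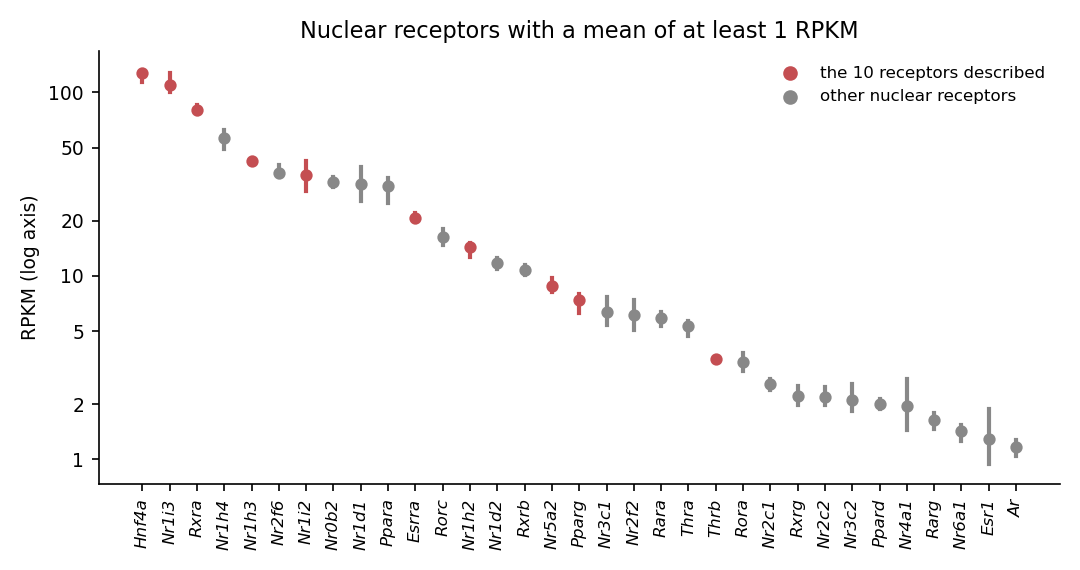
Level of each nuclear receptor gene with a mean of at least 1 RPKM over the 4 liver libraries, on a log axis. Points are means and vertical lines span the lowest to the highest library, with the 10 receptors described in red and the remaining family members in grey. Hnf4a, Nr1i3 and Rxra stand at the top and Thrb is the lowest of the 10.

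The xenobiotic receptors came first in the comparison of genotypes. Nr1i2, which encodes PXR and lies on chromosome 16 from 38068685 to 38115186 (GRCm39, as in the deposited table), had 108 and 114 CPM in HFD-WT livers and 81.0 and 90.1 CPM in HFD-KO livers. The reads behind these values were 3120 and 3143 in HFD-WT, then 2132 and 2151 in HFD-KO libraries. Both HFD-KO values lay below both HFD-WT values. The means were 111 ± 4.6 CPM (SD, n = 2) and 85.5 ± 6.4 CPM, a log2 fold change of -0.38 (SE 0.089, 95% confidence interval -0.58 to -0.17, edgeR adjusted p = 0.271). On the linear scale this is a change of -23.0%, with an interval from -33.3% to -11.0%. The unadjusted p was 0.0034 by edgeR, the smallest of the 10 receptors and the 163rd smallest of the 12967 genes tested. The fold change was between -0.46 and -0.30 over the 10 alternative analyses, with an unadjusted p below 0.05 in 10 of 10. The adjusted p ranged from 0.0051 without replicate 2 of HFD-KO to 0.9998 without replicate 2 of HFD-WT, and was below 0.05 only in the former.

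Nr1i3, which encodes CAR, which shares many target genes with PXR, lies on chromosome 1 from 171041539 to 171048270. It had 398 and 365 CPM in HFD-WT livers and 485 and 403 CPM in HFD-KO livers. Both HFD-KO values were the higher, but the lower of them exceeded the highest HFD-WT value by little. The log2 fold change was 0.22 (SE 0.11, 95% confidence interval -0.05 to 0.48, edgeR adjusted p = 0.631). Without replicate 2 of HFD-KO it was 0.35 with an adjusted p = 0.037, and without replicate 1 of HFD-KO it was 0.08, so that the value depended on replicate 1 of HFD-KO. Its span overlaps by 4691 bases with that of Tomm40l on the other strand, to which between 173 and 328 reads were assigned, and it is not given in the sources used here whether strand was used in counting.

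The fitted fold changes of the 2 xenobiotic receptors had opposite signs, although the interval of Nr1i3 held 0. A ratio within each library needs no scaling between libraries, but it cannot show which of the 2 genes changed. The RPKM of Nr1i3 was 2.72 and 2.36 times that of Nr1i2 in HFD-WT livers and 4.41 and 3.30 times in HFD-KO livers. The ratio was higher in both HFD-KO libraries, by 0.59 on the log2 scale (exact permutation test, two-sided, p = 0.333, the smallest that 2 libraries against 2 allow). Leaving out single libraries gave differences from 0.38 to 0.80.

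**Figure D2:**
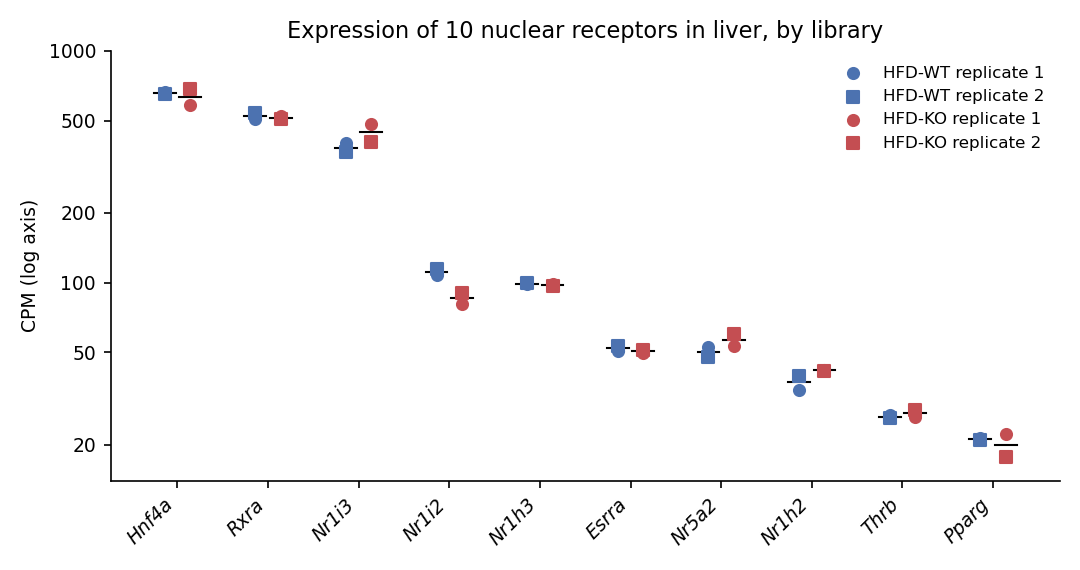
Expression of the 10 receptors in CPM on a log axis, with a point for each library (circles replicate 1, squares replicate 2, blue HFD-WT, red HFD-KO) and a black line at each group mean. The 2 red points of Nr1i2 lie below its blue points, and heights of different genes are not corrected for gene length.

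The oxysterol receptors were next. Nr1h3, which encodes LXR alpha, the form enriched in liver and macrophages, lies on chromosome 2 from 91014406 to 91033179. It had 98.4 and 99.4 CPM in HFD-WT livers and 99.0 and 96.4 CPM in HFD-KO livers. The groups overlapped and the values were nearly equal, with a log2 fold change of -0.02 (95% confidence interval -0.20 to 0.16, edgeR adjusted p = 0.969). Nr1h2, which encodes the widely expressed LXR beta, lies on chromosome 7 from 44199040 to 44203375. It had 34.6 and 39.7 CPM in HFD-WT livers and 42.1 and 41.7 CPM in HFD-KO livers. Both HFD-KO values were above both HFD-WT values, and the HFD-KO replicates were closer to each other than the HFD-WT replicates were. The log2 fold change of 0.18 (SE 0.095, 95% confidence interval -0.05 to 0.40) had an edgeR adjusted p = 0.647. The RPKM ratio of Nr1h3 to Nr1h2 was 3.39 and 2.98 in HFD-WT and 2.80 and 2.75 in HFD-KO livers, a log2 difference of -0.20 (exact permutation test, two-sided, p = 0.333, the smallest possible).

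Rxra, the common heterodimer partner, lies on chromosome 2 from 27566452 to 27652969. It had 509 and 541 CPM in HFD-WT livers and 523 and 507 CPM in HFD-KO livers, and the groups overlapped. The log2 fold change of -0.03 had a 95% confidence interval of -0.23 to 0.18 (edgeR adjusted p = 0.951). Its level was 7.82 and 7.46 times that of Rxrb in HFD-WT and 7.54 and 7.08 times in HFD-KO livers, and these ratios overlapped between the genotypes.

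Hnf4a (chromosome 2, positions 163348728 to 163414830) gave 662 and 653 CPM in HFD-WT livers and 586 and 681 CPM in HFD-KO livers. The HFD-KO values lay on both sides of the HFD-WT values, and the log2 fold change was -0.05 (SE 0.10, 95% confidence interval -0.30 to 0.19, edgeR adjusted p = 0.908). Nr5a2, on chromosome 1 from 136770309 to 136888186, encodes the bile acid regulator LRH-1. It had 52.7 and 47.8 CPM in HFD-WT livers and 53.3 and 60.1 CPM in HFD-KO livers. Replicate 1 of HFD-KO was almost level with replicate 1 of HFD-WT, and the log2 fold change of 0.17 (SE 0.097, 95% confidence interval -0.05 to 0.40) had an edgeR adjusted p = 0.661.

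Esrra (chromosome 19, positions 6888345 to 6899208) gave 51.0 and 53.4 CPM in HFD-WT livers and 49.8 and 51.2 CPM in HFD-KO livers, which overlapped (log2 fold change -0.05, 95% confidence interval -0.24 to 0.14, edgeR adjusted p = 0.894). Its span shares 73 bases with Trmt112 on the other strand. Thrb (chromosome 14, positions 4431611 to 4809435) gave 26.8 and 26.0 CPM in HFD-WT livers and 26.3 and 28.3 CPM in HFD-KO livers. These overlapped as well (log2 fold change 0.05, 95% confidence interval -0.15 to 0.24, edgeR adjusted p = 0.898).

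Pparg (chromosome 6, positions 115337912 to 115467360) gave 21.4 and 20.9 CPM in HFD-WT livers and 22.2 and 17.8 CPM in HFD-KO livers. The HFD-KO replicates lay on either side of the HFD-WT values. The log2 fold change was -0.08 (SE 0.12, 95% confidence interval -0.36 to 0.19, edgeR adjusted p = 0.877), and it was 0.07 without replicate 2 of HFD-KO and -0.25 without replicate 1 of HFD-KO. Its ratio to Ppara, the receptor of fatty acid oxidation, was 0.234 and 0.254 in HFD-WT and 0.318 and 0.182 in HFD-KO livers, so replicates of HFD-KO differed more than the genotypes did.

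In all, 0 of 10 receptors passed an adjusted p of 0.05 by edgeR, against 0.0771% of all genes tested, and 0 of 10 did so by DESeq2 or by limma-voom. At an unadjusted p below 0.05, 1 of 10 receptors, Nr1i2, was called, against 8.98% of all genes in either direction and 4.73% in the lower direction. Both HFD-KO libraries lay below both HFD-WT libraries for 1 receptor, against 20.3% of all genes, and above them for 3 receptors, against 20.5% of all genes. These shares are close to the background. Outside Nr1i2, the intervals of the 9 receptors differed in width, from -12.7% to 11.9% for Nr1h3 to -3.1% to 39.7% for Nr1i3, and a change inside a receptor's own interval was not distinguished from 0. The median log2 fold change was -0.02 over the 10 receptors and 0.01 over all genes tested.

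**Figure D3:**
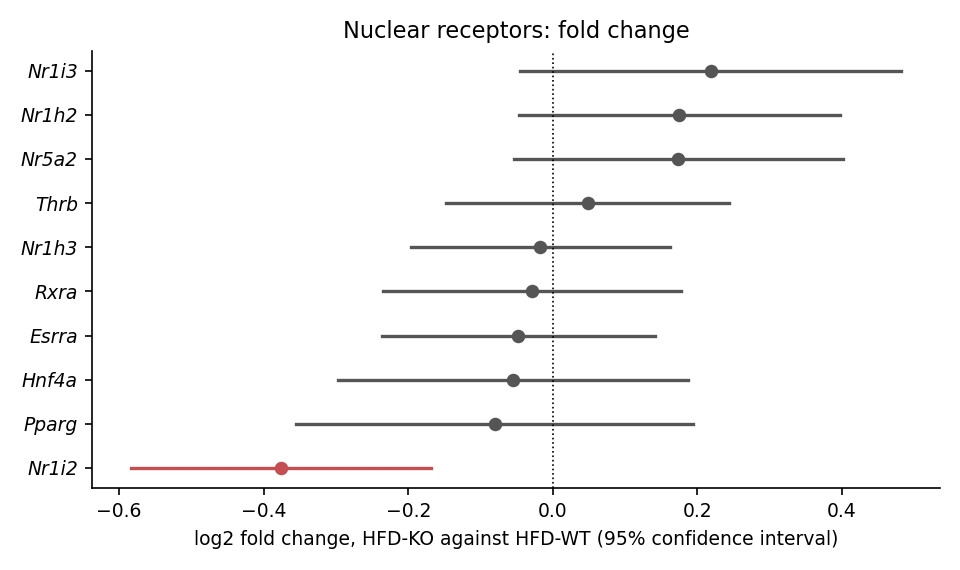
Log2 fold change between the genotypes (positive where HFD-KO livers were higher) for the 10 receptors, with 95% confidence intervals from the edgeR fit. The interval of Nr1i2, in red, lies below 0, and the intervals of the other 9 receptors, in grey, cross 0.

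**Figure D4:**
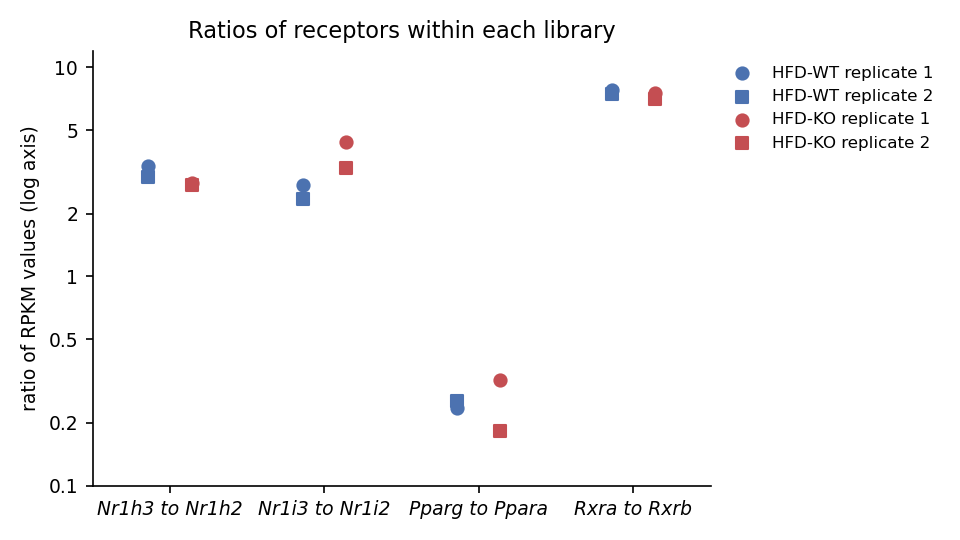
Ratio of the RPKM values of 2 receptors within each library, on a log axis, with circles for replicate 1, squares for replicate 2, blue for HFD-WT and red for HFD-KO. The ratio of Nr1i3 to Nr1i2 is higher in both HFD-KO libraries, while the ratios of Pparg to Ppara and of Rxra to Rxrb overlap.

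The genes that PXR and CAR are known to induce, which encode cytochromes P450, conjugating enzymes and efflux pumps, were compared next. Of the 44 listed genes 39 were tested, and 3 passed an adjusted p of 0.05 by edgeR, with 2 lower and 1 higher. At an unadjusted p below 0.05, 16 were lower and 6 were higher, 56.4% of the list, and the median log2 fold change was -0.25. Both HFD-KO libraries were below both HFD-WT libraries for 20 of the 39 genes, against 20.3% of all genes, and above them for 6, against 20.5%. Several of these genes belong to families of similar sequence in which reads can be shared, and they are not independent of one another. At an adjusted p below 0.05 the count was 14 without a filter and 14 by DESeq2's Wald test. These settings also called more of all genes. Over all genes 81 were higher and 81 lower without a filter, and 56 and 61 by DESeq2's Wald test. The main fit had 7 and 3. Over the alternatives 13 to 21 were lower and 4 to 8 were higher at an unadjusted p below 0.05.

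Gstm3, a mu-class glutathione S-transferase, had 76.8 and 93.2 CPM in HFD-WT livers and 30.7 and 36.1 CPM in HFD-KO livers, and Gsta1, of the alpha class, had 22.6 and 26.6 CPM and 8.51 and 5.86 CPM. Both fell, by log2 fold changes of -1.35 (edgeR adjusted p = 0.024) and -1.77 (edgeR adjusted p = 0.029). Cyp2c54, a fatty acid epoxygenase of the Cyp2c cluster, rose from 51.5 and 37.6 CPM to 129 and 108 CPM, with a log2 fold change of 1.41 (edgeR adjusted p = 0.046). None of these 3 passed without replicate 2 of HFD-WT, and Cyp2c54 did not with library size alone. Cyp2a4, a steroid hydroxylase, had a log2 fold change of -1.21 (edgeR adjusted p = 0.058).

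The standard reporter genes of the 2 receptors are named here with their values already known. Cyp3a11, the major drug-oxidizing P450 induced by PXR, had 1546 and 1263 CPM in HFD-WT livers and 691 and 831 CPM in HFD-KO livers (log2 fold change -0.88, SE 0.14, edgeR adjusted p = 0.115). Cyp2b10, the classic CAR target, had 5.35 and 7.96 CPM in HFD-WT livers and 1.22 and 3.22 CPM in HFD-KO livers (log2 fold change -1.60, SE 0.40, edgeR adjusted p = 0.329). In neither did the groups overlap, and in both the HFD-KO values were the lower. The adjusted p of Cyp3a11 was 0.0018 by edgeR without a filter and 7.0e-08 by DESeq2, and that of Cyp2b10 was 0.026 and 0.027. Without replicate 1 of HFD-KO the log2 fold changes of Cyp3a11 and Cyp2b10 were -0.76 and -1.04. Without replicate 2 of HFD-KO they were -1.02 and -2.45. The 6 genes higher at an unadjusted p below 0.05 were Cyp2c29, Cyp2c37, Cyp2c50, Cyp2c54, Gadd45a and Gadd45b, of which the first 4 lie in 1 gene family, so the list did not move in 1 direction.

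Targets of LXR govern cholesterol efflux and fatty acid synthesis. Of 18 such genes 0 passed an adjusted p of 0.05 by edgeR, and the median log2 fold change was -0.16. At an unadjusted p below 0.05, 4 were lower and 0 higher, 22.2% of the list against 8.98% of all genes in either direction. The 4 were Mylip, which marks the LDL receptor for degradation, Abcg1, a cholesterol exporter, Fasn, the fatty acid synthase, and Acaca, the acetyl-CoA carboxylase. Mylip had 22.9 and 24.9 CPM in HFD-WT livers and 20.4 and 17.3 CPM in HFD-KO livers (log2 fold change -0.34, edgeR adjusted p = 0.416). Abcg1 had 11.0 and 12.8 CPM in HFD-WT livers and 9.91 and 8.33 CPM in HFD-KO livers (log2 fold change -0.38, edgeR adjusted p = 0.478). By DESeq2's Wald test 3 of the list were lower at an unadjusted p below 0.05, and 1 was lower without replicate 2 of HFD-WT. Leaving out a HFD-KO library moved genes of the list in both directions. Without replicate 1 of HFD-KO, Abca1 and Lpl had log2 fold changes of 0.43 and 0.57. In the same fit Fasn, Mylip and Pltp had -0.63, -0.47 and -0.43. Without replicate 2 of HFD-KO, Cyp7a1 had a log2 fold change of 0.69 and Scd1 one of -0.64.

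Targets of PPAR gamma serve lipid droplets and fatty acid uptake. Of 22 listed genes 19 were tested, and 0 passed an adjusted p of 0.05 by edgeR. At an unadjusted p below 0.05, 4 were lower and 0 higher, 21.1% of the list against 8.98% of all genes in either direction. Plin4, a lipid droplet coat protein, had 229 and 230 CPM in HFD-WT livers and 165 and 168 CPM in HFD-KO livers (log2 fold change -0.46, SE 0.077, edgeR adjusted p = 0.136). Cidec, which enlarges lipid droplets, had 97.1 and 106 CPM in HFD-WT livers and 50.9 and 68.0 CPM in HFD-KO livers (log2 fold change -0.77, SE 0.14, edgeR adjusted p = 0.168). Mogat1, an acyltransferase of triglyceride synthesis, and Cd36, a fatty acid translocase, had log2 fold changes of -0.64 and -0.24. In these 4 genes, which were named for the smallest p of the list, the groups did not overlap, while in Pparg they did. Over the list, both HFD-KO libraries lay below both HFD-WT libraries for 5 of 19 genes, against 20.3% of all genes. They lay above them for 2, against 20.5%. At an adjusted p below 0.05, 2 of the list (Plin4 and Cidec) were lower by DESeq2's Wald test. By edgeR without a filter 3 were lower (also Mogat1). Leaving out replicate 1 of HFD-KO gave log2 fold changes in both directions. In that fit Fabp4 and Lpl had 0.99 and 0.57, while Mogat1, Cidec and Plin4 had -0.83, -0.58 and -0.45. Leaving out replicate 2 of HFD-KO instead gave -0.69, -0.54 and -0.48 for Cidea, Plin5 and Plin4. Without replicate 2 of HFD-KO 9 of the list were lower and 1 was higher at an unadjusted p below 0.05. The median of the list with all libraries was -0.08, so the 4 genes named first were a minority of it. Among the adipocyte markers, Lep (0 reads in each library) and Adipoq (at most 0.152 CPM) were at or near 0. Cfd and Fabp4 had means of 4.80 and 16.1 CPM and log2 fold changes of 0.92 and 0.43 (edgeR adjusted p = 0.518 and 0.79). The whole list of 8, which includes Cidec, summed to between 462 and 523 CPM, most of it from Adipor2 with a mean of 401 CPM.

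Kupffer cells and other macrophages also express LXR alpha and PPAR gamma, and the summed expression of their markers was lower in both HFD-KO livers. Of 15 macrophage markers, 10 were lower at an unadjusted p below 0.05, against 4.73% of all genes tested. At an adjusted p of 0.05 by edgeR 0 were lower. Markers of 1 cell type are not independent of one another. The macrophage markers summed to 565 and 706 CPM in HFD-WT and to 479 and 435 CPM in HFD-KO livers. Clec4f, a Kupffer cell marker, had 52.5 and 64.3 CPM in HFD-WT and 43.8 and 43.1 CPM in HFD-KO livers. Of 12 stellate cell markers, 6 were lower at an unadjusted p below 0.05, against the same 4.73% of all genes. Their sums were 593 and 664 CPM in HFD-WT and 533 and 428 CPM in HFD-KO livers. Endothelial markers summed to 323 and 369 CPM in HFD-WT and to 319 and 342 CPM in HFD-KO livers, and cholangiocyte markers to 73.3 and 92.9 CPM and to 61.3 and 51.3 CPM. B and plasma cell markers summed to 20.6 and 17.5 CPM in HFD-WT livers and to 128 and 25.5 CPM in HFD-KO livers, and erythroid markers to 758 and 601 CPM and to 811 and 1148 CPM. The part of these cells in the values of Nr1h3, Pparg, Abcg1 and Cd36 was not tested.

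The targets of the remaining receptors were read against the same background of 8.98%. Of 31 tested HNF4 alpha targets, which encode plasma proteins and enzymes of hepatocytes, 3 were lower and 2 were higher at an unadjusted p below 0.05, 16.1% of the list, with a median log2 fold change of 0.04. These counts rested on single libraries: 9 were higher without replicate 2 of HFD-KO, 6 without replicate 1 of HFD-KO and 0 without replicate 1 of HFD-WT or with library size alone, and 0 were lower without replicate 2 of HFD-WT. Apoc2, a cofactor of lipoprotein lipase, had the smallest p of the list, with 468 and 473 CPM in HFD-WT and 394 and 355 CPM in HFD-KO livers (log2 fold change -0.33, edgeR adjusted p = 0.367). The 16 LRH-1 targets had a median log2 fold change of 0.03. Nr0b2, the corepressor that LRH-1 and the bile acid receptor induce, had a log2 fold change of 0.10.

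Of 19 thyroid hormone targets, 2 were lower and 2 were higher at an unadjusted p below 0.05, 21.1% of the list. Without replicate 1 of HFD-KO 6 were lower, without replicate 2 of HFD-KO 6 were higher, and without either HFD-WT library 1 was higher. The smallest p was that of Thrsp, a regulator of lipogenesis that CAR and PXR also induce and that stands in both lists, with 168 and 199 CPM in HFD-WT and 98.5 and 78.3 CPM in HFD-KO livers (log2 fold change -1.05, SE 0.13, edgeR adjusted p = 0.061, and 6.3e-10 by DESeq2). The 27 tested ERR alpha targets, which serve the citrate cycle and the respiratory chain, had a median log2 fold change of -0.06.

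**Figure D5:**
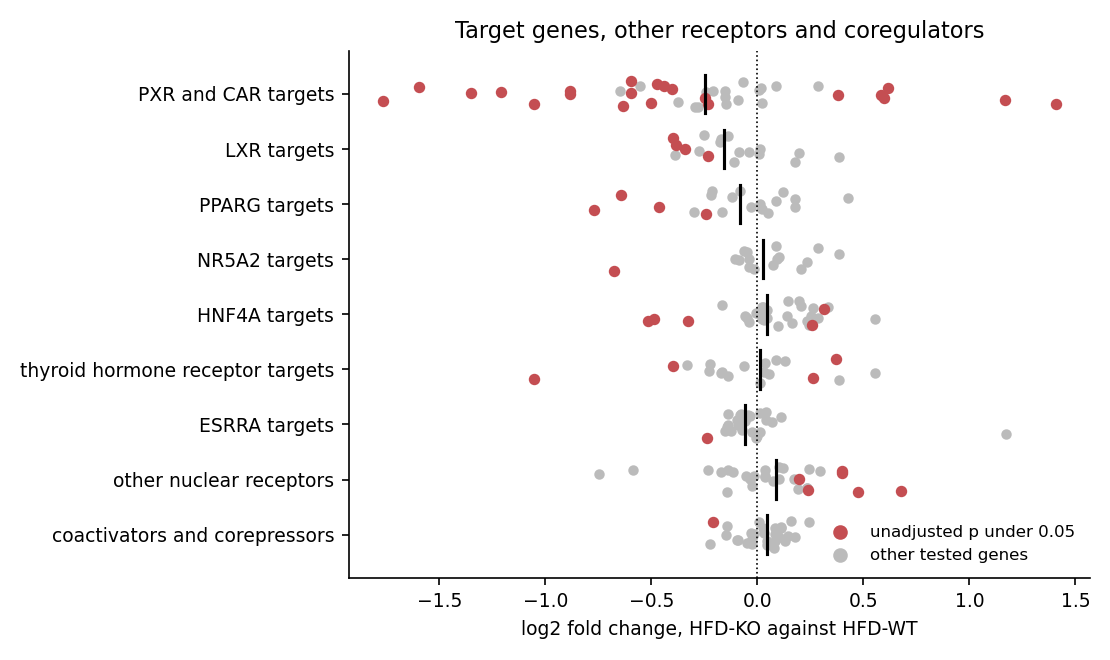
Log2 fold change between the genotypes (positive where HFD-KO livers were higher) for each tested gene of the receptors' target lists, of the remaining nuclear receptors and of the coregulators, with red points for an unadjusted p below 0.05 and a black line at each list's median. The PXR and CAR targets spread the widest to the lower side, from -1.77 to 1.41, while most HNF4 alpha and ERR alpha targets lie near 0.

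The rest of the nuclear receptor superfamily was compared for reference, and no difference between it and the 10 receptors was tested. Of the 39 other genes 30 were tested, and 0 passed an adjusted p of 0.05 by edgeR (1 by DESeq2's Wald test and 0 by limma-voom). At an unadjusted p below 0.05, 6 were higher and 0 lower, 20% of the list against 8.98% of all genes in either direction. The 6 were Nr1d1, Nr1d2, Nr2f2, Nr3c2, Nr4a1 and Rara. Both HFD-KO libraries lay above both HFD-WT libraries for 11 of the 30 genes, against 20.5% of all genes, and below them for 4, against 20.3%. Nr1d1, which encodes the clock repressor REV-ERB alpha, had 82.8 and 73.4 CPM in HFD-WT and 117 and 100.2 CPM in HFD-KO livers (log2 fold change 0.47, SE 0.11, edgeR adjusted p = 0.257 and 0.036 by DESeq2). Nr2f2, an orphan receptor of vascular and mesenchymal cells, had 30.01 and 26.3 CPM in HFD-WT and 39.8 and 34.4 CPM in HFD-KO livers (log2 fold change 0.40, edgeR adjusted p = 0.359). Nr4a1, an immediate-early receptor, and Nr3c2, the mineralocorticoid receptor, had log2 fold changes of 0.68 and 0.40. The bile acid receptor Nr1h4 (log2 fold change 0.04) and Ppara (-0.06) overlapped between the groups. Reads were 0 in each library for 7 receptors, Nr0b1, Rorb, Nr2e1, Nr2e3, Esr2, Pgr and Nr5a1, where 3 reads would correspond to between 0.104 and 0.126 CPM (for counting error only).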

How the data were processed

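Members were the genes whose name in the deposited table equals one of the 10 symbols. The members, gene lists and alternatives were chosen with earlier results of these data known. The authors made directional MGI libraries from TRIzol RNA, trimmed the paired reads, aligned them to mm10 and quantified genes in Partek Genomics Suite (GENCODE). Versions, the aligner and the handling of strand are not given in the sources used here. The submitters' processing notes name GRCm39 beside mm10, and the table's gene positions differ from GRCm38, as for Thrb, which lies on the other strand there. Positions are printed as the table gives them.

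The deposited read counts, which are not normalized, were the only values tested. The deposited RPKM values were used for levels of different genes. The deposited TPM values and the authors' CPM, a score on an adjusted library size, were not used.

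Counts were fitted in edgeR 4.0.16 (R 4.3.3) after filterByExpr, which kept 12967 genes, with TMM factors and the two-sided quasi-likelihood test, and p-values were adjusted over all of these genes (Benjamini-Hochberg). Intervals used the t quantile at the fit's degrees of freedom. Alternatives were DESeq2 1.42.0 size factors, library size alone, no filter, DESeq2's Wald test, limma-voom (limma 3.58.1), a replicate block and leaving out each library. The procedure was tested on simulated data. Genes named from a list were the up to 4 with the smallest p and a mean of at least 1 CPM, and any with an adjusted p below 0.05. Exceptions are said to be so, and some genes the rule names are not reported here. Lists share 14 genes. RefSeq promoters came by symbol. Figures were drawn with matplotlib 3.10.9.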

Additional observations from a re-analysis of the deposited data

How the results depend on the processing

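Over the alternatives 0 of 10 receptors had an adjusted p below 0.05, except without replicate 2 of HFD-KO, where 1 was lower (Nr1i2) and 1 was higher (Nr1i3). Leaving out each library gave between 0 and 1 receptors lower and between 0 and 1 higher at an adjusted p below 0.05, and between 0 and 1 higher at an unadjusted p below 0.05 (Nr1i3 without replicate 2 and Nr5a2 without replicate 1 of HFD-KO). Nr1i2 was the 1 receptor lower at an unadjusted p below 0.05 in each of the 10 alternatives. Over all genes at an adjusted p below 0.05, 7 were higher and 3 lower. These were 4 higher with library size alone, 81 and 81 without a filter, 56 and 61 by the Wald test of DESeq2, 12 and 8 under the replicate block, and 0 to 376 and 0 to 329 when each library was left out. At an unadjusted p below 0.05, 551 were higher and 613 lower, against 346 and 894 with library size alone, which moved the median of all genes from 0.01 to -0.04, 304 and 372 with DESeq2's Wald test, and 255 to 1095 and 207 to 1078 when each library was left out.

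Among the other nuclear receptors, the count higher at an adjusted p below 0.05 was 1 without a filter and 1 with DESeq2's Wald test (Nr1d1 in both), and 0 to 4 when each library was left out. At an unadjusted p below 0.05, 3 to 10 were higher and 0 to 1 lower when each library was left out, and Esrrb was the 1 lower with library size alone, without a filter and with limma-voom. The numbers 1 and 2 occur in both genotypes. Deviations of same-numbered libraries from their group means had r = -0.09 across 12967 genes, and those of cross-numbered libraries 0.09. With 2 libraries per group these values mirror each other, so they cannot show whether same-numbered libraries shared a batch. With the replicate block the log2 fold change of Nr1i2 was -0.38. The causes of these changes were not tested. Each receptor had at least 424 reads in a library, and the effect of depth on the calls was not tested.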

Other observations

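Coactivators and corepressors, the proteins that receptors recruit to chromatin, differed little between the genotypes. Of 29 tested genes 0 passed an adjusted p of 0.05 by edgeR. At an unadjusted p below 0.05, 1 was lower and 0 were higher, 3.45% of the list against 8.98% of all genes. Without replicate 1 of HFD-KO 4 were higher, and 0 were lower without either HFD-WT library. This was Ncoa4, which also delivers ferritin for degradation, with 182 and 186 CPM in HFD-WT and 167 and 152 CPM in HFD-KO livers (log2 fold change -0.21, adjusted p = 0.527 by edgeR). Ncoa2, a p160 coactivator, had a log2 fold change of 0.24 (adjusted p = 0.599 by edgeR). Ppargc1a, the coactivator of ERR alpha and the PPARs, had 8.74 and 9.56 CPM in HFD-WT and 8.36 and 9.59 CPM in HFD-KO livers.

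Without replicate 1 of HFD-KO, Ncoa2 had a log2 fold change of 0.39 (adjusted p = 0.023 by edgeR), and without replicate 2 of HFD-KO, Foxa2, a pioneer factor beside Hnf4a, had one of -0.65 (adjusted p = 0.018 by edgeR), against -0.22 with all libraries. Both were named after their values were seen.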
